A study of Ovis aries with 15 samples.

Results

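In all, 10 genes of plasma transport proteins that the liver secretes were followed through 15 RNA-seq libraries labelled as sheep kidney. They were albumin (ALB), fetuin-A (AHSG), hemopexin (HPX), the apolipoprotein genes APOA1, APOA2, APOC3 and APOH, and the inter-alpha-trypsin inhibitor heavy chain genes ITIH1, ITIH2 and ITIH3. The 10 genes were taken by symbol out of the 25592 genes of the deposited table. They had been selected on their expression level in 1 library, the library labelled AFB1 replicate 1. Levels in that library are therefore given here as a description, and the groups were compared in the other 14 libraries.

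The animals were male Dorper and Small-tailed Han crossbred sheep aged 4 months, 6 per group of 18 in the trial, fed for 21 days and kept in pens of a pair of animals. The CON group received a total mixed ration, and the AFB1 group received the same ration with aflatoxin B1, a mould toxin of feed, at 500 µg per kg of dry matter. The AFB1_CUR group received the same toxin dose with curcumin, a polyphenol of turmeric, at 800 mg per kg of dry matter. RNA labelled as kidney was sequenced from 5 sheep per group, and each sheep gave 1 library.

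Plasma transport proteins are made in hepatocytes, secreted into the blood and used to carry fatty acids, minerals, heme and lipids between organs. In the healthy kidney the smaller of them reach the filtrate, where the proximal tubule takes them up through the receptors megalin and cubilin, so the organ handles much of the protein while transcribing little of most of the genes. The genes depend in hepatocytes on transcription factors such as HNF4A, the FOXA factors and C/EBP alpha, and the kidney tubule shares HNF4A but not all of the others.

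The total count was 50255295 to 68747047 per library, and p-values here measure the spread between these libraries. The library labelled AFB1 replicate 1 went against its tissue label. The summed FPKM (fragment counts scaled for gene length and sequencing depth) of 12 hepatocyte markers was 6135 there and 9.15 to 28.8 in the other 14 libraries, with 11 of the 12 highest in that library. Of the proximal tubule markers, 6 of 7 were lowest there, as were all 6 of the loop and distal nephron, with sums of 30.5 and 0.428 FPKM against 775 to 2040 and 762 to 2722 in the others. All 4 podocyte markers were lowest too, at a sum of 0.217 FPKM against 62.2 to 159, and the defining genes NPHS1 and KCNJ1 were at a count of 0. The sums in that library and over the others were 30.5 and 0.846 to 7.44 FPKM for 5 liver sinusoid markers (3 of 5 highest in that library, with MARCO alone at 23.1), and 4.13 and 6.72 to 148 FPKM for 5 red cell markers. They were 0.713 and 0.348 to 11.3 FPKM for 4 adrenal cortex markers, and 16.9 and 9.33 to 18.3 FPKM for 4 adipocyte markers. The other 14 libraries carried the kidney markers of their label.

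**Figure D1:**
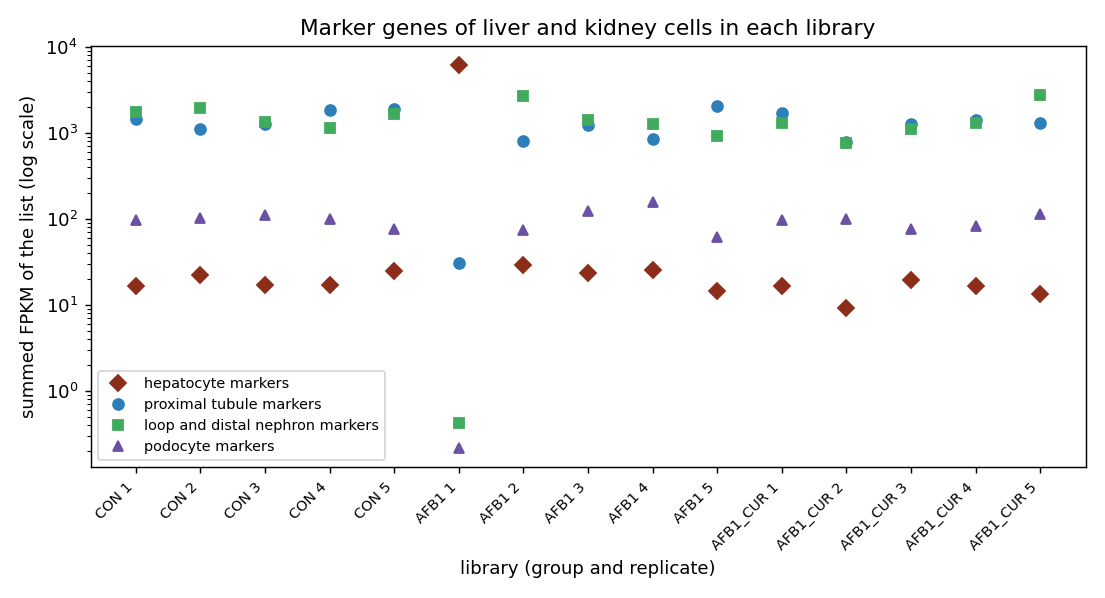
Summed FPKM (log scale) of 12 hepatocyte, 7 proximal tubule, 6 loop and distal nephron and 4 podocyte markers in each of the 15 libraries, 1 symbol per list and library. In the library labelled AFB1 replicate 1 the hepatocyte sum was 6135 and the 3 kidney sums were 30.5, 0.428 and 0.217, whereas the other 14 libraries had hepatocyte sums of 9.15 to 28.8.

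The 10 genes lie on 6 chromosomes, in the coordinates of the deposited table, which match those of the RefSeq annotation of the assembly ARS-UI_Ramb_v3.0 for all 10. ALB spans chr6:89222082-89239968 on the plus strand and AHSG chr1:201378666-201385809 on the minus strand. HPX is at chr15:46351607-46360930 on the plus strand, APOH at chr11:61795029-61807511 on the minus strand and APOA2 at chr1:112659164-112660421 on the minus strand. APOA1 (chr15:27236444-27238446, minus strand) and APOC3 (chr15:27221654-27234272, plus strand) are neighbours in opposite orientation with 2171 bp between them and no other annotated gene. ITIH3 (chr19:48167466-48181347) and ITIH1 (chr19:48188565-48202949) are also adjacent, both on the minus strand, 7217 bp apart, while ITIH2 stands alone at chr13:12146000-12177718 on the plus strand. In the gene ontology columns of the table, 5 of the 10 genes carry the term blood microparticle, which 86 genes of the table share. The 3 ITIH genes are 3 of the 6 genes annotated to hyaluronan metabolic process, and APOA1, APOA2 and APOC3 are the 3 genes annotated to high-density lipoprotein particle receptor binding.

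In the library labelled AFB1 replicate 1, ALB reached 25681 FPKM and ranked 1 of 25592 genes, followed in the table by the mitochondrial genes COX1, COX3, ATP6 and ATP8. Its count of 3190765 was 5.69% of the library (95% Wilson interval 5.68 to 5.69, which covers counting error only), and the 10 genes together took 8.26%. In the other 14 libraries the 10 genes together took 0.00167% to 0.0103% of the counts.

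The carriers other than albumin also stood near the top of that library. AHSG, whose product binds calcium phosphate in serum, was at 3930 FPKM (rank 13), and HPX, the plasma scavenger of free heme, was at 1606 FPKM (rank 27). Among the apolipoproteins, APOA2, the second protein of high-density lipoprotein, was at 4016 FPKM (rank 10) and APOA1, its main protein, at 1672 FPKM (rank 25). APOH, the phospholipid-binding beta-2-glycoprotein I, was at 1236 FPKM (rank 44), and APOC3, an inhibitor of lipoprotein lipase, at 1079 FPKM (rank 46). The heavy chains, which are transferred to hyaluronan in the extracellular matrix, closed the order with ITIH3 at 741 FPKM (rank 62), ITIH1 at 599.7 FPKM (rank 86) and ITIH2 at 563 FPKM (rank 93).

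The distance between that library and the others was uneven. Over the highest of the other 14 libraries, the FPKM of AHSG was 1278-fold, that of ALB 1073-fold and that of ITIH2 921-fold higher. The same ratio was 137 for ITIH1, 123 for APOA2 and 77.3 for APOA1. Against the median of the 14 the ratios ran from 160.1 for APOA1 to 26884 for ALB. The order of the genes changed with it. By median FPKM over the 14 libraries APOA1 (10.4) and APOA2 (10.1) came first, then APOH (2.57), ITIH1 (1.74), ALB (0.955), APOC3 (0.909), ITIH3 (0.555), AHSG (0.344), HPX (0.176) and ITIH2 (0.0905). Neighbours in this order were not well separated, since the higher of each pair was above the next in 7 to 11 of the 14 libraries, with 7 of 14 for ALB over APOC3.

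**Figure D2:**
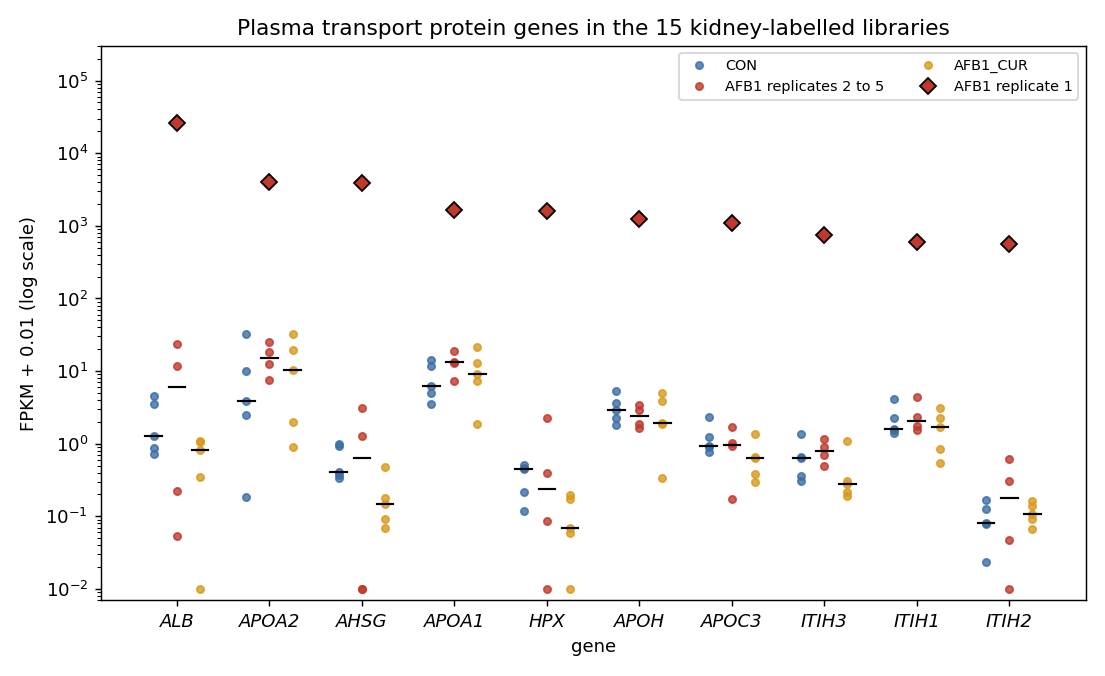
FPKM + 0.01 (log scale) of the 10 genes in the 15 libraries, with 1 point per library, a diamond for the library labelled AFB1 replicate 1 and a black line at the median of each group without it. The diamonds run from 563 FPKM for ITIH2 to 25681 FPKM for ALB, and in the other libraries the 3 groups overlap for every gene.

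Expressed as a percent of the FPKM in the library labelled AFB1 replicate 1, the median over the 14 libraries was 0.00372% for ALB, 0.00876% for AHSG, 0.0109% for HPX and 0.0161% for ITIH2. It was 0.0749% for ITIH3, 0.0842% for APOC3, 0.208% for APOH, 0.251% for APOA2, 0.29% for ITIH1 and 0.625% for APOA1. The first 4 genes, set apart after their values were seen as those with a median under 0.05%, are described next, and the remaining 6 after them.

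**Figure D3:**
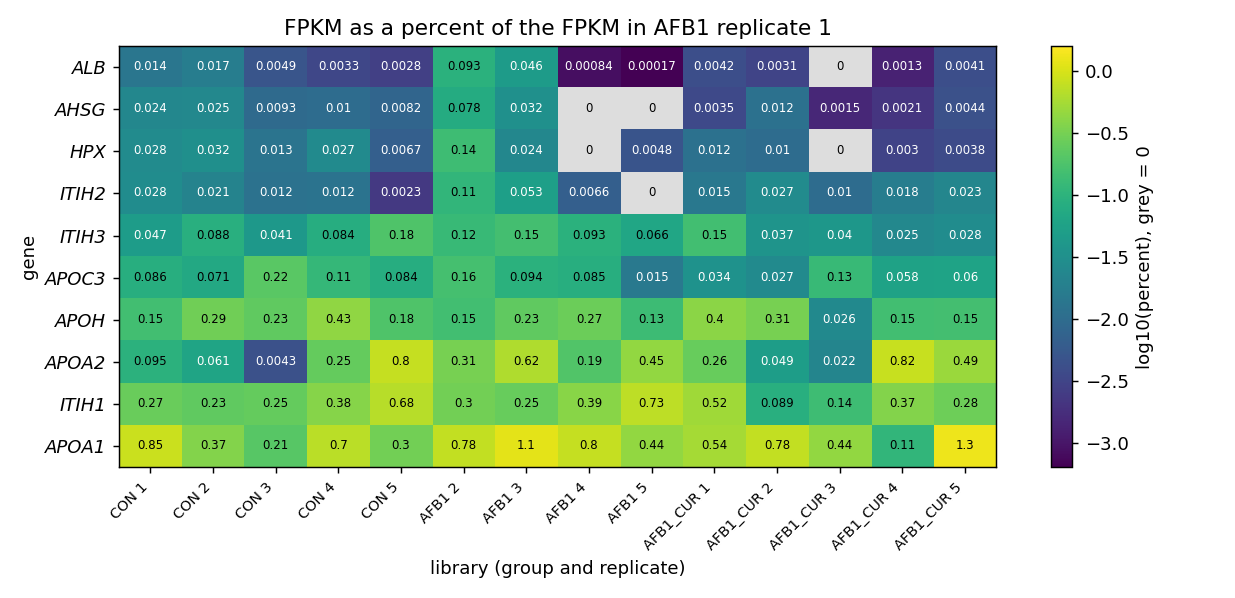
Heat map of the FPKM of each gene in each of the 14 other libraries as a percent of its FPKM in the library labelled AFB1 replicate 1, with the percent printed in each cell, the colour on a log10 scale and grey for 0. The upper 4 rows, ALB, AHSG, HPX and ITIH2, are highest in AFB1 replicate 2 at 0.0782% to 0.14%, whereas APOA1 in the bottom row lies between 0.11% and 1.29%.

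ALB, the main carrier of fatty acids and the main osmotic protein of plasma, was at 3.48, 4.48, 1.26, 0.852 and 0.707 FPKM in CON replicates 1 to 5. In AFB1 replicates 2 to 5 it was at 23.9, 11.8, 0.215 and 0.0443 FPKM, and in AFB1_CUR replicates 1 to 5 at 1.08, 0.804, 0, 0.338 and 1.06 FPKM. The AFB1 libraries thus lay on both sides of all CON and most AFB1_CUR libraries, with AFB1 replicates 2 and 3 above every other library and replicate 5 below every other one except the AFB1_CUR library at 0. The group means were 2.16 ± 1.71 (SD, n = 5) in CON, 8.99 ± 11.4 (SD, n = 4) in AFB1 and 0.656 ± 0.473 (SD, n = 5) in AFB1_CUR. In reads, these levels were 88 to 626 counts in CON, 2846, 1656, 26 and 6 in AFB1, and 0 to 157 in AFB1_CUR. A count of 0 in AFB1_CUR replicate 3 allows up to 0.0534 CPM (counts scaled to the library total) from 3 counts, and this limit covers counting error only.

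AHSG was at 0.935, 0.971, 0.366, 0.392 and 0.322 FPKM in CON replicates 1 to 5 and at 3.07, 1.26, 0 and 0 FPKM in AFB1 replicates 2 to 5. In AFB1_CUR replicates 1 to 5 it was at 0.138, 0.465, 0.0586, 0.0833 and 0.171 FPKM. As for ALB, AFB1 replicates 2 and 3 were the highest of the 14 libraries, here with replicates 4 and 5 of the same group as the lowest. In AFB1_CUR, 4 of 5 libraries lay below all CON libraries.

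HPX was at 0.449, 0.506, 0.206, 0.433 and 0.107 FPKM in CON replicates 1 to 5, at 2.25, 0.385, 0 and 0.0777 FPKM in AFB1 replicates 2 to 5, and at 0.19, 0.162, 0, 0.0484 and 0.0602 FPKM in AFB1_CUR replicates 1 to 5. Here only AFB1 replicate 2 stood above the CON libraries. ITIH2 was at 0.16, 0.117, 0.0683, 0.07 and 0.0132 FPKM in CON replicates 1 to 5, at 0.611, 0.297, 0.0374 and 0 FPKM in AFB1 replicates 2 to 5, and at 0.0826, 0.154, 0.056, 0.0985 and 0.131 FPKM in AFB1_CUR replicates 1 to 5. AFB1 replicates 2 and 3 were again the highest, and ITIH2 had at most 37 counts in any CON or AFB1_CUR library.

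APOA1 had the highest median of the 10 genes. It was at 14.3, 6.25, 3.46, 11.8 and 4.96 FPKM in CON replicates 1 to 5, at 13, 19, 13.4 and 7.34 FPKM in AFB1 replicates 2 to 5, and at 9.11, 13.1, 7.36, 1.85 and 21.6 FPKM in AFB1_CUR replicates 1 to 5. The means were 8.14 ± 4.65 (SD, n = 5), 13.2 ± 4.75 (SD, n = 4) and 10.6 ± 7.37 (SD, n = 5) in this order, and both the highest and the lowest library belonged to AFB1_CUR.

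APOA2 varied more than APOA1. It was at 3.82, 2.45, 0.174, 9.88 and 32.2 FPKM in CON replicates 1 to 5, at 12.6, 25, 7.63 and 18.1 FPKM in AFB1 replicates 2 to 5, and at 10.3, 1.98, 0.888, 32.7 and 19.6 FPKM in AFB1_CUR replicates 1 to 5. The CON and AFB1_CUR groups both spanned low and high levels, and the 4 AFB1 libraries lay inside the range of either.

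APOC3 ranged from 0.761 to 2.32 FPKM in CON, from 0.162 to 1.69 FPKM in AFB1 and from 0.291 to 1.35 FPKM in AFB1_CUR, with its highest value in CON replicate 3. APOH ranged from 1.82 to 5.27 FPKM in CON, from 1.65 to 3.39 FPKM in AFB1 and from 0.325 to 4.96 FPKM in AFB1_CUR, with its highest value in CON replicate 4. Neither gene was highest in AFB1 replicate 2.

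ITIH1 ranged from 1.4 to 4.09 FPKM in CON, from 1.53 to 4.38 FPKM in AFB1 and from 0.535 to 3.11 FPKM in AFB1_CUR. ITIH3 ranged from 0.301 to 1.36 FPKM in CON, from 0.488 to 1.14 FPKM in AFB1 and from 0.182 to 1.08 FPKM in AFB1_CUR. In the AFB1_CUR group 4 of the 5 libraries had ITIH3 at 0.294 FPKM or lower, and replicate 1 alone was above 1.

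Compared with the CON group, the AFB1 group without replicate 1 had 8 of the 10 genes higher and 2 lower, and none was called. Of all tested genes 55.3% were higher. A call required a fold change of more than 1.5 together with p below 0.05 before adjustment. By this rule 2.65% of the 20070 tested genes were called, 1.25% as higher and 1.4% as lower, and 4.87% had a p below 0.05. All 10 genes passed the filter of 10 counts in 4 of the 14 libraries. The median log2 fold change of the 10 genes was 0.67, against 0.03 over all tested genes. ALB differed by a log2 fold change of 1.98 ± 1.24 (SE, edgeR quasi-likelihood test, Benjamini-Hochberg adjusted p = 0.985), ITIH2 by 1.33 ± 0.95 and HPX by 0.87 ± 1.10. APOA1 differed by 0.66 ± 0.53, APOC3 by -0.44 ± 0.57 and APOH by -0.37 ± 0.54 (SE). By this test none of them exceeded the spread between the libraries. Without AFB1 replicate 2 the values were 0.86 for ALB, 0.31 for ITIH2, -0.56 for AHSG and -1.12 for HPX. The direction of AHSG and HPX thus turned. Without AFB1 replicate 5, ALB (2.39) and ITIH2 (1.74) passed the rule.

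Compared with the AFB1 group without replicate 1, the fitted log2 fold changes of all 10 genes were below 0 in the AFB1_CUR group. The share of all tested genes above 0 was 50.5%. AHSG, HPX and ITIH2 followed ALB over the 14 libraries, so the 10 directions are not independent of each other. APOH turned to 0.28 without AFB1_CUR replicate 3. Of the 10 genes 2, ALB and HPX, were called. Among all tested genes 1.74% were called by this rule, 0.892% as higher and 0.852% as lower, and 2.74% had a p below 0.05. ALB fell by 3.73 ± 1.32 and HPX fell by 2.75 ± 1.16 on the log2 scale (SE, edgeR quasi-likelihood test). Neither passed the Benjamini-Hochberg adjustment over all genes, with an adjusted p of 0.9996 from edgeR for both. AHSG had a log2 fold change of -2.53 ± 1.19 and missed the call, ITIH2 of -1.13 ± 0.94 and ITIH3 of -0.99 ± 0.56 (SE). The remaining 5 genes lay between -0.67 for ITIH1 and -0.01 for APOH, whose mean FPKM was 2.45 in AFB1 and 2.58 in AFB1_CUR. The median of the 10 was -0.83, against 0.00271 over all tested genes.

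Both calls rested on AFB1 replicate 2. Without that library ALB had a log2 fold change of -2.61, HPX of -0.77, AHSG of -1.21 and ITIH2 of -0.12. No gene of the 10 was then called. HPX also lost its call without AFB1_CUR replicate 3, 4 or 5, at -2.44, -2.61 and -2.66, and AHSG was called without AFB1 replicate 4 or 5 (-2.94 in both) or AFB1_CUR replicate 2 (-3.09). With the replicate number as a block both calls were lost (ALB -2.93, HPX -2.42) and ITIH1 and ITIH3 were called instead, and limma on log2(FPKM + 1) called none of the 6 genes it tested (ALB -1.49).

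In the same comparison 2 of 8 tested hepatocyte markers were called lower and 6 were not called, of which 3 had fold changes above 0 (ARG1 0.39, TDO2 0.16 and BAAT 0.45). The median over the 8 was -0.33. ASGR2, a subunit of the asialoglycoprotein receptor, fell by 1.22 ± 0.34 on the log2 scale (SE), and CYP2E1, a cytochrome P450 of the liver, fell by 3.89 ± 1.48 (SE). ASGR2 did not follow ALB, since among the 14 libraries it was highest in AFB1 replicate 4, at 16.9 FPKM. Counts of CYP2E1 were 376, 223, 8 and 0 in AFB1 replicates 2 to 5 and 32, 0, 0, 0 and 22 in AFB1_CUR replicates 1 to 5. CPS1, the first enzyme of the urea cycle, had 136 and 40 counts in AFB1 replicates 2 and 3, 17 in CON replicate 2 and 0 in the 11 other libraries of the 14. The summed hepatocyte markers lay at 16.6 to 24.8 FPKM in CON, 14.7 to 28.8 in AFB1 and 9.15 to 19.6 in AFB1_CUR, and CPS1, HAL, AKR1D1 and HAMP were at 0 in all 5 AFB1_CUR libraries. These markers were also at 0 in most other libraries, and AKR1D1 and HAMP had counts in AFB1 replicate 2 alone among the 14 (45 and 16). Of the 12 hepatocyte markers, 6 had their highest value among the 14 libraries in AFB1 replicate 2, as did ALB, AHSG, HPX and ITIH2. The same library had the highest sum of liver sinusoid markers among the 14 (7.44 FPKM, with 6.28 in AFB1_CUR replicate 2 and at most 2.93 in the others). Each of these sums rested mainly on 1 gene, MARCO at 5.22 FPKM in the first and LYVE1 at 5.33 FPKM in the second. Its adrenal cortex sum was 4.37 FPKM, against 11.3 in AFB1_CUR replicate 2 and at most 1.06 in the others. The part of RNA from other tissues in the group differences was not tested, and in bulk tissue fewer cells of a type and less RNA per cell cannot be told apart.

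Compared with the CON group, 3 of the 10 genes were higher and 7 lower in the AFB1_CUR group, and 52.6% of all tested genes were higher. None of the 10 was called, against 2.64% of all tested genes (1.73% higher, 0.907% lower, and 5.27% with a p below 0.05). The 3 higher genes each turned without a single library. APOA1 turned to -0.17 without AFB1_CUR replicate 5, APOA2 to -0.33 without AFB1_CUR replicate 4 and ITIH2 to -0.068 without CON replicate 5. HPX differed by -1.89 ± 1.11, AHSG by -1.78 ± 1.13, ALB by -1.75 ± 1.21 and APOC3 by -0.95 ± 0.54 on the log2 scale (SE). The Benjamini-Hochberg adjusted p-values of the 10 genes from edgeR ran from 0.87 to 0.987. The median log2 fold change of the 10 was -0.57, against 0.02 over all genes. ITIH3 passed the rule without AFB1_CUR replicate 1 (-1.55), and APOC3 without AFB1_CUR replicate 3 (-1.41). In a fit of these 2 groups alone, AHSG and HPX passed it.

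The 3 comparisons share their groups, so their values are not independent of each other. For none of the 10 genes did the FPKM values of the groups fail to overlap in any comparison, while 1.6%, 0.747% and 0.767% of the tested genes had groups without overlap in AFB1 against CON, AFB1_CUR against AFB1 and AFB1_CUR against CON. After Benjamini-Hochberg adjustment edgeR called 0 genes in each comparison, against 977, 549 and 1057 genes with a p below 0.05 before adjustment. DESeq2 called 21, 6 and 2 genes after adjustment, none of them among the 10.

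**Figure D4:**
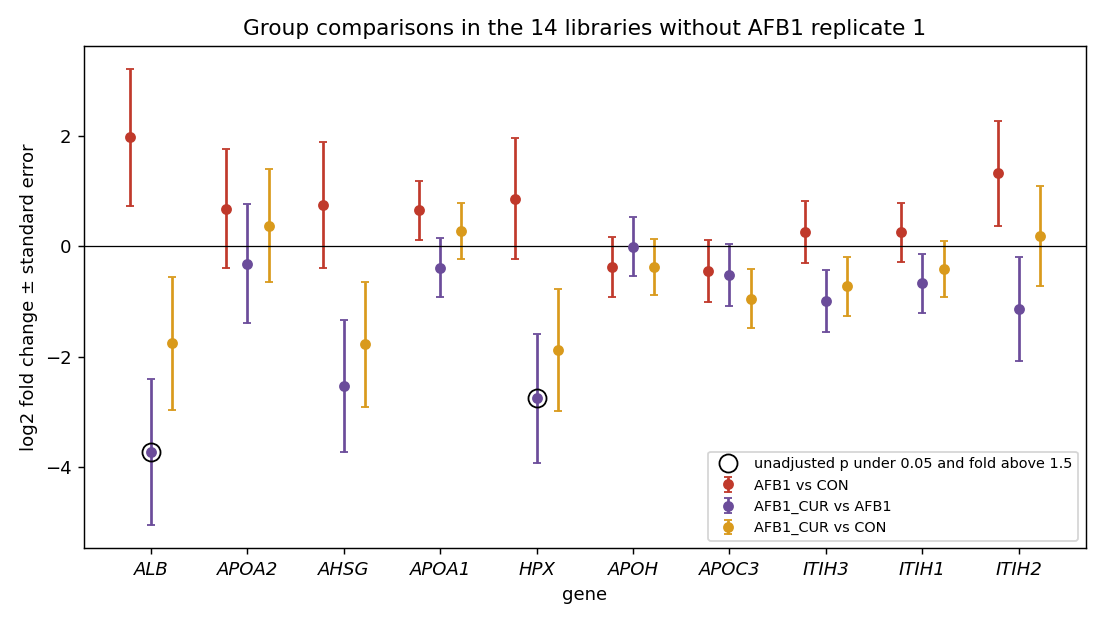
Log2 fold change with its standard error for the 10 genes in the 3 comparisons of the 14 libraries, from edgeR's quasi-likelihood fit. Open rings mark the 2 values that met the call rule, ALB at -3.73 and HPX at -2.75 in AFB1_CUR against AFB1.

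The ratio of each gene to ALB was followed in counts. In the library labelled AFB1 replicate 1 there were 113 AHSG counts per 1000 ALB counts. The ratio was 94.9 in AFB1 replicate 2, 79.1 in AFB1 replicate 3, 199 in CON replicate 1 and 161 in CON replicate 2, the 4 other libraries with the most ALB. ITIH2 gave 32.1 counts per 1000 ALB counts in the library labelled AFB1 replicate 1 and 37.6, 37.4, 68.9 and 38.3 in these 4, and HPX 48.5 against 73.4, 26, 102 and 89.5. For AHSG and HPX the library labelled AFB1 replicate 1 lay between the other 4 libraries, and for ITIH2 below all 4. For APOA1 the ratio was 32.4 in the library labelled AFB1 replicate 1 and 270.2, 803, 2041 and 696 in the other 4, and for APOA2 it was 36.2 against 122, 493, 255 and 128. APOC3 gave 43.6 counts per 1000 ALB counts in the library labelled AFB1 replicate 1 and 73.8, 89.98, 279 and 177 in the other 4. In the same order, APOH gave 69.8 against 112, 357, 760 and 1168, and ITIH1 gave 32.8 against 104, 183, 646 and 441. ITIH3 gave 45.1 against 59.4, 152, 158 and 228. For APOA1, APOA2, APOC3, APOH, ITIH1 and ITIH3, as for ITIH2, all 4 libraries lay above the library labelled AFB1 replicate 1.

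Over the 14 libraries the log2(FPKM + 1) values of AHSG correlated with those of ALB at a Pearson r of 0.963 (Spearman rho 0.880), those of ITIH2 at 0.9 (0.771) and those of HPX at 0.868 (0.869). Without AFB1 replicates 2 and 3, the libraries farthest from the median of ALB, r was 0.920, 0.633 and 0.848. For the other 6 genes r with ALB lay between -0.215 for ITIH1 and 0.411 for ITIH3. These are descriptions of 14 libraries from 3 groups, and no test was made of them. The neighbouring genes did not all move together, with r at -0.107 for APOA1 and APOC3 and at 0.486 for ITIH1 and ITIH3.

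**Figure D5:**
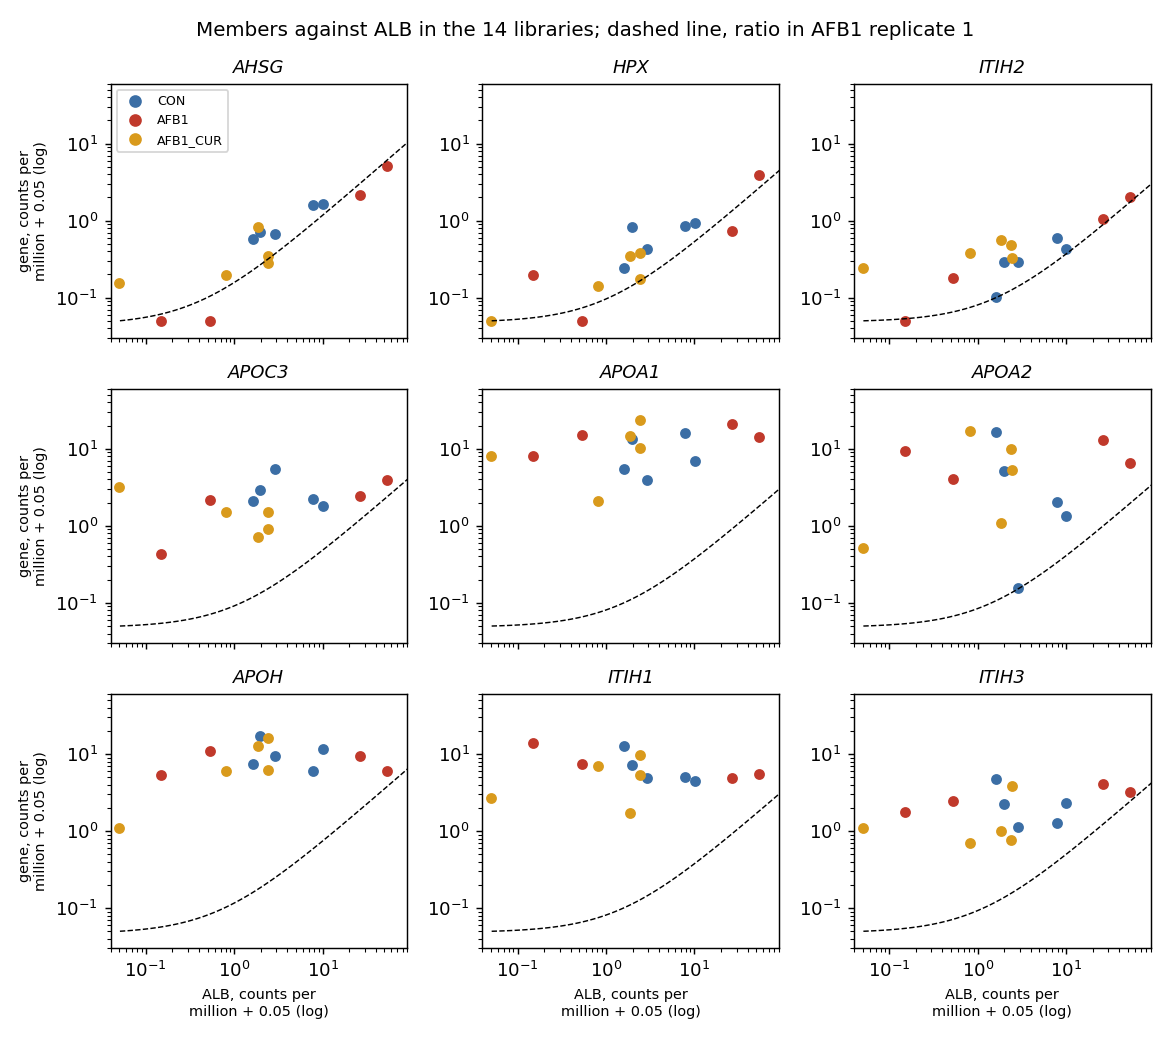
CPM + 0.05 (counts scaled to the library total) of 9 genes against those of ALB in the 14 libraries without AFB1 replicate 1, both axes on log scales and 1 point per library, with a dashed line at the ratio of the gene to ALB in that library (curved because of the added 0.05). AHSG, HPX and ITIH2 lie near the line in the libraries with the most ALB, with r of 0.963, 0.868 and 0.9 to ALB, whereas APOA1, APOH and ITIH1 lie above it in all 14.

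Among 13156 other genes that reached 1 FPKM in 5 or more of the 14 libraries, the profile of ALB was most like those of EVI2B (r = 0.869), ASTN2 (0.863), a ubiquitin D-like gene (0.849), AMBP (0.815) and WIPF3 (0.802). AMBP, the precursor of alpha-1-microglobulin and bikunin that pairs with the ITIH chains, was at 3980 FPKM in the library labelled AFB1 replicate 1, and without AFB1 replicates 2 and 3 its r with ALB was 0.313. Without the same libraries r was 0.591 for EVI2B, 0.778 for ASTN2, 0.731 for the ubiquitin D-like gene and 0.729 for WIPF3. EVI2B, ASTN2 and WIPF3 were at 0.698, 0.0191 and 0.562 FPKM in the library labelled AFB1 replicate 1, below their lowest values in the other 14. The profile of APOA1 was most like those of RABEPK (0.802), a ribosomal protein L10a-like gene (0.8), RILPL2 (0.789), DCBLD1 (0.774) and MED30 (0.771). Without CON replicate 3 and AFB1_CUR replicate 4 these values were 0.628, 0.577, 0.8004, 0.722 and 0.7704.

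Of 26 further plasma proteins made mainly by the liver, 24 were in the table and 23 of them were highest in the library labelled AFB1 replicate 1. Their sum was 21244 FPKM there and 514 to 952 FPKM in the other 14, where APOE, a lipid carrier that many tissues make, gave 306 to 702 FPKM. APOE was also the highest of the list in the library labelled AFB1 replicate 1, at 4117 FPKM. The exception was AFP, the fetal counterpart of albumin, which lies 7389 bp from ALB and was at 0.0731 FPKM. The other gene neighbours followed the 10 genes in that library, with ITIH4 at 883, APOA4 at 684 and FETUB at 384 FPKM. Over the 14 other libraries ITIH4 was at 0.851 to 5.38 FPKM, whereas APOA4 had 34 counts in AFB1 replicate 2 and 0 in every other.

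In the test of the 14 libraries, 1 of 22 tested plasma protein genes was called higher and 2 lower in AFB1 than in CON. GC, the vitamin D-binding protein, differed by a log2 fold change of 1.08 ± 0.49 (SE). APOE fell by 0.59 ± 0.24 and A1BG, a plasma glycoprotein, by 0.71 ± 0.24 on the log2 scale (SE). In AFB1_CUR, FETUB and APOA5 were called lower than in AFB1 and than in CON, and no gene of the list was called higher. FETUB had 20, 55, 4 and 0 counts in AFB1 replicates 2 to 5 and APOA5 had 48, 32, 0 and 0, and both were at 0 in all 5 AFB1_CUR libraries. In CON replicates 1 to 5 the counts were 11, 0, 17, 9 and 0 for FETUB and 11, 11, 0, 4 and 0 for APOA5, so the calls against CON set at most 17 counts against a group at 0. Both genes met the filter on low counts through CON and AFB1 libraries alone. That selection favoured a lower level in AFB1_CUR, so the calls of FETUB and APOA5 are a description and no test of their direction.

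Of 16 receptors and enzymes that handle these proteins, 8 were lowest and 5 highest in the library labelled AFB1 replicate 1, with a sum of 416 FPKM there and 502 to 853 FPKM in the other 14. LRP2 (megalin) was at 30.2 to 134 FPKM and CUBN (cubilin) at 23.5 to 137 FPKM, against 0.00799 and 0.0175 FPKM in the library labelled AFB1 replicate 1. FCGRT, which recycles albumin, was at 88.1 to 126 FPKM and 220.2 FPKM in that library, and SCARB1, a receptor for high-density lipoprotein, at 1.16 to 2.94 FPKM and 14.3 FPKM. HMOX1, which breaks down the heme that hemopexin delivers, was at 55.9 to 166 FPKM against 39.6 FPKM. Of 15 tested genes of this list, none was called in AFB1 or AFB1_CUR against CON. LIPC, hepatic lipase, was the 1 gene called in AFB1_CUR against AFB1, with a log2 fold change of 1.17 ± 0.52 (SE).

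Of 17 liver transcription factors, 13 were highest in the library labelled AFB1 replicate 1, with a sum of 468 FPKM there and 116 to 181 FPKM in the other 14. HNF4A, which the tubule also uses, was at 52.9 FPKM there, inside its range of 26.8 to 63.7 FPKM in the other 14. FOXA1, FOXA2 and FOXA3 were at 6.83, 10.6 and 12.7 FPKM against at most 0.15, 0.109 and 0.271 FPKM, and ONECUT1 was at 3.37 FPKM against at most 0.0178. CEBPA was at 67.4 FPKM against 6.25 to 13.4. NR0B2, the bile acid-responsive repressor SHP, was the 1 factor of 13 tested that was called in the 14 libraries. It was higher in AFB1 than in CON by a log2 fold change of 0.93 ± 0.38 (SE) and fell by 0.98 ± 0.38 in AFB1_CUR against AFB1 (SE).

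Among the remaining cell type lists, none of the 7 proximal tubule, 6 loop and distal nephron, 4 podocyte, 4 red cell and 3 adipocyte markers tested was called in any comparison. Of 5 liver sinusoid markers, STAB2 (1.13) and VSIG4 (1.10) were called higher in AFB1 than in CON, and VSIG4 (1.18) was called higher in AFB1_CUR than in CON, as log2 fold changes. VSIG4 was no marker of the library labelled AFB1 replicate 1, where it was at 0.149 FPKM against a median of 0.284 FPKM in the other 14. Of 3 adrenal cortex markers, CYP17A1 (-1.48) was called lower in AFB1 than in CON and STAR (2.54) higher in AFB1_CUR than in CON. The STAR value rested on AFB1_CUR replicate 2, where STAR was at 10.8 FPKM against a group mean of 2.67 FPKM. CYP17A1 had at most 38 counts in any of the 14 libraries, with means of 0.246 FPKM in CON and 0.0832 FPKM in AFB1. STAB2 was also low, at 0.247 FPKM or less in the 14 libraries. The hepatocyte marker ASGR2 was called lower in AFB1_CUR than in CON as well, at -0.89.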

How the data were processed

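RNA-seq libraries labelled as kidney, of 5 sheep per group, were grouped by their titles. The authors filtered the reads and aligned them, and deposited for each gene and library a read count and an FPKM value. Their processing notes name cutadapt 1.9, HISAT2 2.2.1 and StringTie 2.1.6. No source used here names the genome build or the counting tool, and the coordinates of 24848 of 24947 shared symbols equal those of RefSeq for ARS-UI_Ramb_v3.0. All value columns belonged to a sample. The FPKM values were used for levels, the counts for tests. The 10 genes, the gene lists and the tests were chosen with earlier results of these data known.

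In the 14 libraries without AFB1 replicate 1, 20070 genes reached a count of 10 in 4 or more libraries and entered 1 model with the 3 groups, using TMM scaling and edgeR 4.0.16 in R 4.3.3 (quasi-likelihood test). A call required, as in the study's own screening, a fold change of more than 1.5 with p below 0.05 before adjustment, and Benjamini-Hochberg adjusted p-values over all tested genes were computed beside it. The standard error is the log2 fold change divided by the square root of the F statistic. The p-values measure the spread between libraries, 4 or 5 per group, at a depth of 50255295 to 68747047 counts. The script was tested on simulated counts with 200 changed genes. Named were the 10 genes, the called genes of each list, the 5 highest genes of the library labelled AFB1 replicate 1, the highest and lowest of each list there (some given by their sums alone), and the 5 profiles most like ALB and APOA1. Other genes of the lists were named after their values were seen. Alternatives were all 15 libraries, RLE size factors, DESeq2 1.42.0, other filters, limma 3.58.1 on log2(FPKM + 1) and log2(FPKM + 0.1), the compared groups alone, a replicate block and leaving out each library. Same-numbered libraries were checked for pairing. Promoter motifs were not analysed here, and some genes of the lists are not reported by name.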

Additional observations from a re-analysis of the deposited data

Results flagged for a closer look

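In the library labelled AFB1 replicate 1 all 10 genes lay far from the other AFB1 libraries, with 25681 FPKM for ALB, 3930 for AHSG, 1606 for HPX, 1672 for APOA1, 4016 for APOA2, 1079 for APOC3, 1236 for APOH, 599.7 for ITIH1, 563 for ITIH2 and 741 for ITIH3. The genes had been selected on these values, so they are a description and no test.

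In the 30 groups of 4 or 5 libraries without it, 3 for each gene, a single library stood apart by the Dixon criterion in 3. The criterion marks about 1 in 20 groups by chance only for independent groups of normally distributed values. Here FPKM was used without a log scale and several genes moved together, so that rate cannot show an excess. HPX stood out at 2.25 FPKM in AFB1 replicate 2, the library on which the lower HPX level in AFB1_CUR rested, with a gap of 0.8292 of the range of the 4 libraries, just above the critical value. AHSG stood out at 0.465 FPKM in AFB1_CUR replicate 2 and ITIH3 at 1.08 FPKM in AFB1_CUR replicate 1, and leaving out that library made ITIH3 pass the call rule in AFB1_CUR against CON.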

How the results depend on the processing

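Of 624 fold changes of the 10 genes recomputed without AFB1 replicate 1, 587 kept their direction and side of the threshold, 14 gained a call, 10 lost one and 13 turned. With all 15 libraries, including the one on whose levels the genes were selected, which fixed these calls beforehand and makes them no test, 10 of the 10 genes were called in AFB1 against CON, all higher, and 10 in AFB1_CUR against AFB1, all lower. In this fit 1261, 1069 and 334 of all genes were called in AFB1 against CON, AFB1_CUR against AFB1 and AFB1_CUR against CON, and APOC3 (8.14) and APOH (6.99) turned in the first. In the same order, without a filter on low counts 867, 707 and 928 genes were called. With the FPKM filter the calls were 232, 123 and 214, with 6 of the 10 genes tested, 1 called in AFB1_CUR against AFB1 (ALB), and APOH turned to 0.0032. Limma on log2(FPKM + 1) called 105, 81 and 80 genes (39 of the 105 higher, against 251 of 532) and on log2(FPKM + 0.1) 202, 134 and 175 (60 of the 202 higher), with 0 of the 10 in AFB1_CUR against AFB1. With the compared groups alone, 1 of the 10 (ALB) was called in AFB1_CUR against AFB1 and 2 (AHSG, HPX) in AFB1_CUR against CON. DESeq2 called 652, 428 and 618 genes and 0, 3 and 0 of the 10.

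Same-numbered libraries did not pair throughout, with r from -0.123 to 0.425 and a median of 0.0427 in 13 pairs. Of these pairs 4 were over 0.1, and 6 of 14 libraries correlated best with their own number. The replicate 2 libraries did correlate, at 0.232 for CON and AFB1, 0.227 for CON and AFB1_CUR and 0.425 for AFB1 and AFB1_CUR. For replicate 5, CON and AFB1 correlated at 0.228. With the replicate block 486, 342 and 591 genes and 0, 2 and 0 of the 10 were called, the 2 being ITIH1 and ITIH3 rather than ALB and HPX, and AHSG turned to -0.24 in AFB1 against CON.

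Leaving out each library gave 474 to 843 called genes in AFB1 against CON (most without AFB1 replicate 5), 327 to 665 in AFB1_CUR against AFB1 (most without AFB1 replicate 2) and 305 to 706 in AFB1_CUR against CON (fewest without AFB1_CUR replicate 2, most without replicate 4). Of the 10 genes, 0 to 2, 0 to 3 and 0 to 1 were called. Fold changes that turned ranged over -0.56 to 1.16 (AHSG), -1.12 to 1.28 (HPX) and -0.27 to 0.63 (ITIH1) in AFB1 against CON, -0.45 to 0.28 (APOH) in AFB1_CUR against AFB1, and -0.17 to 0.58 (APOA1), -0.33 to 1.63 (APOA2) and -0.068 to 0.55 (ITIH2) in AFB1_CUR against CON. By CPM in place of FPKM, 2 of the 10 genes kept their rank in the library labelled AFB1 replicate 1, since FPKM divides by gene length, and without single libraries 6 to 10 kept their rank by median. For other changes the cause was not tested. Counts under 10 for HPX, AHSG and ITIH2 in several libraries limit what these levels can show. The same holds for ALB, with 6 counts in AFB1 replicate 5 and 0 in AFB1_CUR replicate 3. APOA2 had 7 counts in CON replicate 3.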
